A study of Homo sapiens with 8 samples.

Results

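The regions described here are the peaks of PML::RARA binding that lie at promoters of histone genes. They were taken from a list of 15412 Cut&Run peaks, of which 7169 carry the symbol of the gene whose promoter holds the apex, the point of largest signal. Every peak whose symbol begins with a listed histone gene prefix was taken, which takes in the noncoding H2AZ1-DT and leaves out H2AW. This gave 36 peaks and 27 gene symbols. Of these, 27 peaks with 20 symbols lie in the histone gene cluster on chromosome 6 between 26 and 28 Mb, and 9 peaks with 7 symbols lie elsewhere.

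U937-PR9 cells, of monocytic type, were used, in which added zinc turns on an introduced gene for the PML::RARA fusion. They received 100 µM ZnSO4 (induced) or water (uninduced) for 5 h, nuclei were isolated, and an antibody to the PML::RARA fusion or to RARA directed a nuclease to its target in 2 replicates each, which gave 8 libraries. The values below come from 1 list, that of induced cells with the anti-PML::RARA antibody, in which the authors kept peaks reproducible over both replicates. The other antibody and uninduced cells were not analysed here, so nothing below compares induced with uninduced cells.

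PML::RARA is the fusion protein of acute promyelocytic leukaemia, and it keeps the DNA-binding part of the retinoic acid receptor alpha. Histones H2A, H2B, H3 and H4 form the core of the nucleosome, and linker histone H1 binds the DNA between nucleosomes. Most of their genes are short, lack introns, sit in clusters and are switched on when DNA is replicated, when NPAT gathers at them in the histone locus body, and many H2A and H2B genes face away from each other across a shared promoter. Variants such as H2AX, which marks DNA breaks, H2AZ, found at start sites, and H3.3, laid down outside replication, come from solitary genes that stay active through the cell cycle.

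All sequences shown are of the forward strand for the gene pairs and of the gene's own strand for single genes, in the build of the peak list (hg19, GRCh37), and they end at the base beside the annotated start site. The first set holds the whole stretch between the start sites of divergent H2A and H2B genes, because single peaks covered both starts at most such pairs. The first 3 stretches lay under the highest of these peaks, the fourth was crossed by a break between narrow peaks, and the fifth, which shares sequence with the fourth, had no peak. Capitals mark the CAAT box (CCAAT), the TATA box (TATAAA), the octamer bound by POU2F1 (ATTTGCAT) and the half-site of nuclear receptors such as RARA (AGGTCA), on either strand. Matches of the TATA box on the 2 strands can overlap each other.
H2BC21/H2AC20, chr1:149858233-149858467: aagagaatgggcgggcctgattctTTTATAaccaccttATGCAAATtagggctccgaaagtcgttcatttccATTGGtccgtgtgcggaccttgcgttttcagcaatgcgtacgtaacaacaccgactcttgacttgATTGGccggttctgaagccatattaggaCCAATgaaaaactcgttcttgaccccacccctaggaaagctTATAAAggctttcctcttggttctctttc
H2BC11/H2AC11, chr6:27100575-27100821: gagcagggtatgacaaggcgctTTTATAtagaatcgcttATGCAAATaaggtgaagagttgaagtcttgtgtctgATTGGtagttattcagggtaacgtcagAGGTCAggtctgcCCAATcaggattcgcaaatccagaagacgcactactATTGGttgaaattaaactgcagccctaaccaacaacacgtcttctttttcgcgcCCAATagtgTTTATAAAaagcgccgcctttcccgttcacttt
H2AC17/H2BC17, chr6:27860964-27861202: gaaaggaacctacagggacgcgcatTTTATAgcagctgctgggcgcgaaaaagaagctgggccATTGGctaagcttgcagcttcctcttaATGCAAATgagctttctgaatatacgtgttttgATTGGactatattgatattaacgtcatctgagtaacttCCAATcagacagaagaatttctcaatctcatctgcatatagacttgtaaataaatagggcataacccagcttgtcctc
H2BC13/H2AC13, chr6:27775708-27775950: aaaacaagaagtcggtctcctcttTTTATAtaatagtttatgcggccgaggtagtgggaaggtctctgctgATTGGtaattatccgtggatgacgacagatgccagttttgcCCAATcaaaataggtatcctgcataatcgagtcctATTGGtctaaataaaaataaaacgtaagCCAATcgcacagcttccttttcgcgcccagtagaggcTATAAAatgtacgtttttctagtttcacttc
H2AC14/H2BC14, chr6:27782556-27782799: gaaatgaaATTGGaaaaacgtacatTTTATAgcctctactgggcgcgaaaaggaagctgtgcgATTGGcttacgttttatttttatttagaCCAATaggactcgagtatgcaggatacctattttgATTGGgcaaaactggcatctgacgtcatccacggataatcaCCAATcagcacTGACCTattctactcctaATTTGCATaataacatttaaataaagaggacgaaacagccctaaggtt

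The second set holds the 120 bases before the start sites of H4 genes, because H4 was the class with the highest median height in the chromosome 6 cluster. H4C2, H4C5 and H4C9 had a peak and H4C4 had none. Capitals mark GGTCCG, the core of the element that histone H4 promoters share, and the TATA and CAAT boxes on either strand.
H4C2, minus strand, chr6:26027481-26027600: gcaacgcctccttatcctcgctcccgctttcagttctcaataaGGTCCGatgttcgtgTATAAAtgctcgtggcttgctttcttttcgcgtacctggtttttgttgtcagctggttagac
H4C5, chr6:26204718-26204837: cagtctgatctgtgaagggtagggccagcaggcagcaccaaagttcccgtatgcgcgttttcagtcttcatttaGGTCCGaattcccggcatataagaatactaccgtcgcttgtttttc
H4C9, chr6:27106941-27107060: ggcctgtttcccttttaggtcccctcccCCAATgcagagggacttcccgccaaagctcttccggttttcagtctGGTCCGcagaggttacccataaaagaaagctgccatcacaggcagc
H4C4, minus strand, chr6:26189341-26189460: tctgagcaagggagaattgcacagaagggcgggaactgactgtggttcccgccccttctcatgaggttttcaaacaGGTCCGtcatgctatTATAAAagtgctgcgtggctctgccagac

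The third set holds the 200 bases before the start sites of H3-3B and H2AZ2, the variant genes with the highest peaks. Capitals mark the CAAT box, the TATA box and the octamer on either strand.
H3-3B, minus strand, chr17:73775861-73776060: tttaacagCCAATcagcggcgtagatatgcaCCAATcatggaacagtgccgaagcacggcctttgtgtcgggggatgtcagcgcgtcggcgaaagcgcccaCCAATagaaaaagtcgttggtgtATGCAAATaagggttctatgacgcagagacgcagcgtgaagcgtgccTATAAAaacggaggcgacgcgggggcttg
H2AZ2, minus strand, chr7:44887687-44887886: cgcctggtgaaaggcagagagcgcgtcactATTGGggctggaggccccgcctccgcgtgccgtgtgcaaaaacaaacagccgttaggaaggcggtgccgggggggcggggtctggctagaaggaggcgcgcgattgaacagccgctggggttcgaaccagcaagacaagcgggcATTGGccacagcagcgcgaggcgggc

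Histone promoter peaks were as high as other promoter peaks and were narrower. Height is the largest signal within a peak, a whole number whose scaling is not stated, and it ran from 17 to 48 over the 36 peaks. The median height was 26 (quartiles 19 and 35.25), against 26 (quartiles 20 and 35) over the 7133 other promoter peaks. The difference in mean log2 height was -0.03, with an SD over histone peaks of 0.46. The median width was 827 bp, within a range of 123 to 2178 bp, against 1108 bp over the other promoter peaks, and the difference in mean log2 width was -0.52 with an SD over histone peaks of 0.94. Peaks at or above the median of all promoter peaks numbered 19 of 36 for height and 11 of 36 for width. Each peak has a single value of each kind, the spread between replicates is not known, and no test is given for any value here.

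The narrow widths went with closely spaced peaks, which can lie at 1 gene or at neighbouring genes. When all peaks under 1 kb apart were joined, with or without a histone label, 25 histone regions remained with a median width of 1347 bp. The joining also merged peaks of different genes, such as H3C2 and H2AC4, which had 686 bp between them. The other promoter regions, 6833 after the same joining, had a median of 1159 bp, and the difference in mean log2 width turned to 0.16, a comparison chosen after seeing the data. More than 1 peak was listed for 6 of the 27 histone symbols (22.2%), against 551 of 6546 symbols in the whole list (8.42%). These 15 peaks had a median width of 591 bp, and the 21 peaks of the other symbols a median of 1094 bp. Several peaks under 1 symbol need not be parts of 1 signal, because peaks labelled H2BC13 also covered the starts of H2AC13 and H3C10.

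**Figure D1:**
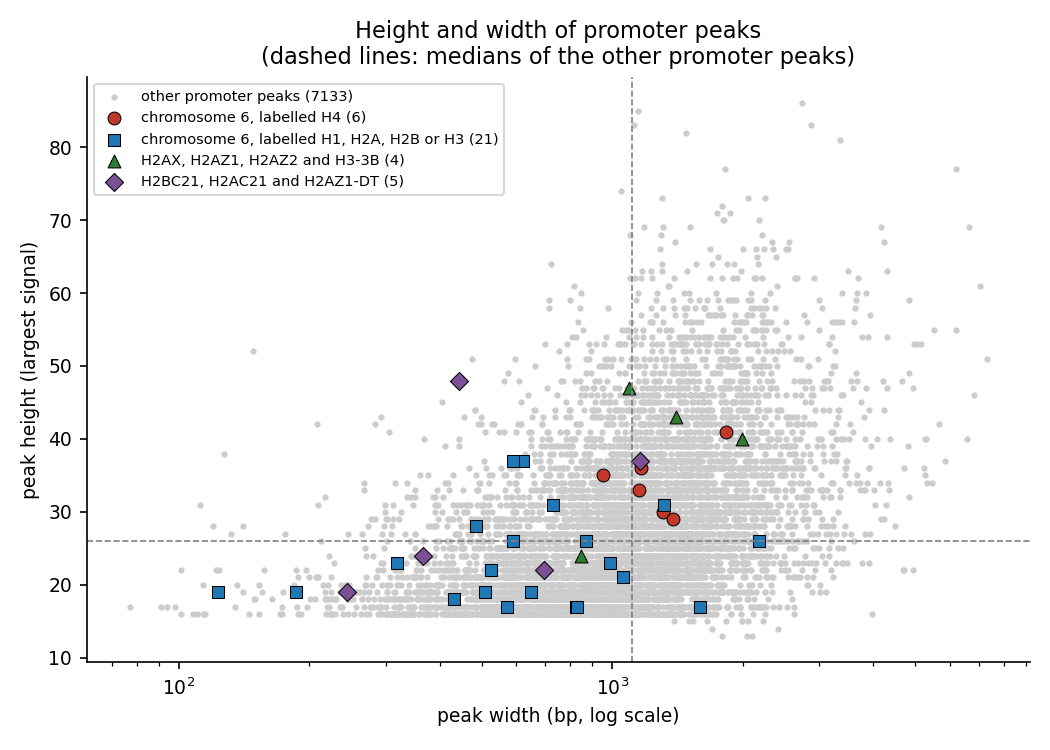
Each point is 1 promoter peak, with its width in bp on a log axis and its height as the largest signal; grey points are the 7133 other promoter peaks and dashed lines their medians, 1108 bp and 26. The 6 peaks labelled H4 on chromosome 6 lie between heights of 29 and 41, the other 21 peaks of the cluster spread from 17 to 37, and the narrow H2BC21 peak stands at 48.

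The highest histone peak was that of H2BC21, an H2B gene of the small cluster on chromosome 1 that shares its promoter with the H2A gene H2AC20. It had a height of 48 at a width of 443 bp (chr1:149858122-149858564), and 93.3% of all promoter peaks were lower while 6.49% were narrower. Its mean signal per base was 29.3, against a median of 10.6 over the histone peaks. The apex lay between the 2 start sites, 117 bp upstream of H2BC21 and 119 bp upstream of H2AC20, within the first sequence shown.

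The next highest peaks belonged to H3-3B with 47, H2AZ2 with 43, H4C1 with 41 and H2AX with 40. The widest were the H2BC5-labelled peak with 2178 bp, H2AX with 1996 bp, H4C1 with 1829 bp, H1-3 with 1591 bp and H2AZ2 with 1403 bp. The lowest height was 17, shared by single peaks labelled H2BC4, H2BC8, H1-3 and H3C12. H1-3, a linker histone gene, was therefore among both the widest and the lowest, with a mean signal of 7.71 per base.

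Linker histone H1 genes had 2 labelled peaks in the cluster, with heights of 31 at H1-2 and 17 at H1-3. The H1-2 apex lay 922 bp downstream of the start site, past the 3' end of this short gene, and the H1-3 apex lay 394 bp downstream. Another H1 gene, H1-4, had its start under the H2BC5-labelled peak, whose apex was 148 bp inside H1-4 and 1645 bp upstream of H2BC5. No apex lay within 1 kb of H1-1, H1-5 or H1-6.

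Peaks labelled H4 were the highest class of the chromosome 6 cluster. H4C1 had a height of 41, H4C9 of 36, H4C3 of 35, H4C8 of 33, H4C2 of 30 and H4C5 of 29. Their median was 34, against 22 (range 17 to 37) over the other 21 peaks of the cluster, so that the groups overlapped. Their median width was 1238 bp (range 951 to 1829 bp), against 621 bp over the other 21. Each of the 6 genes had 1 peak that covered its start site, with the apex between 9 and 160 bp away, and the H4C1 peak also covered the whole of H3C1.

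H2A and H2B genes of the cluster had 16 labelled peaks, 5 with H2A and 11 with H2B symbols. The H2A-labelled peaks had heights of 19 to 37, with H2AC17 the highest and H2AC15 the lowest, and H2AC7 at 26 and H2AC4 at 21 between them. The H2B-labelled peaks had a median height of 19 and a median width of 590 bp, and the highest was the H2BC11 peak of 37. H3 genes had 3 labelled peaks, H3C2 with 28, H3C8 with 23 and H3C12 with 17, and the apex lay 78 bp upstream of the H3C2 start, 1528 bp upstream of that of H3C8 and 208 bp downstream of that of H3C12.

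The cluster falls into 3 blocks of genes separated by long stretches without coding histone genes. In the first block, from H1-1 to H4C8, 15 histone peaks had a median height of 26 and a median width of 1058 bp. In the second, from H2BC11 to H2AC12, 4 peaks had a median height of 33.5. In the third, from H2BC13 to H2BC17, 8 peaks had a median height of 19 and a median width of 557.5 bp, and only the H2AC17 peak of 37 exceeded 23.

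**Figure D2:**
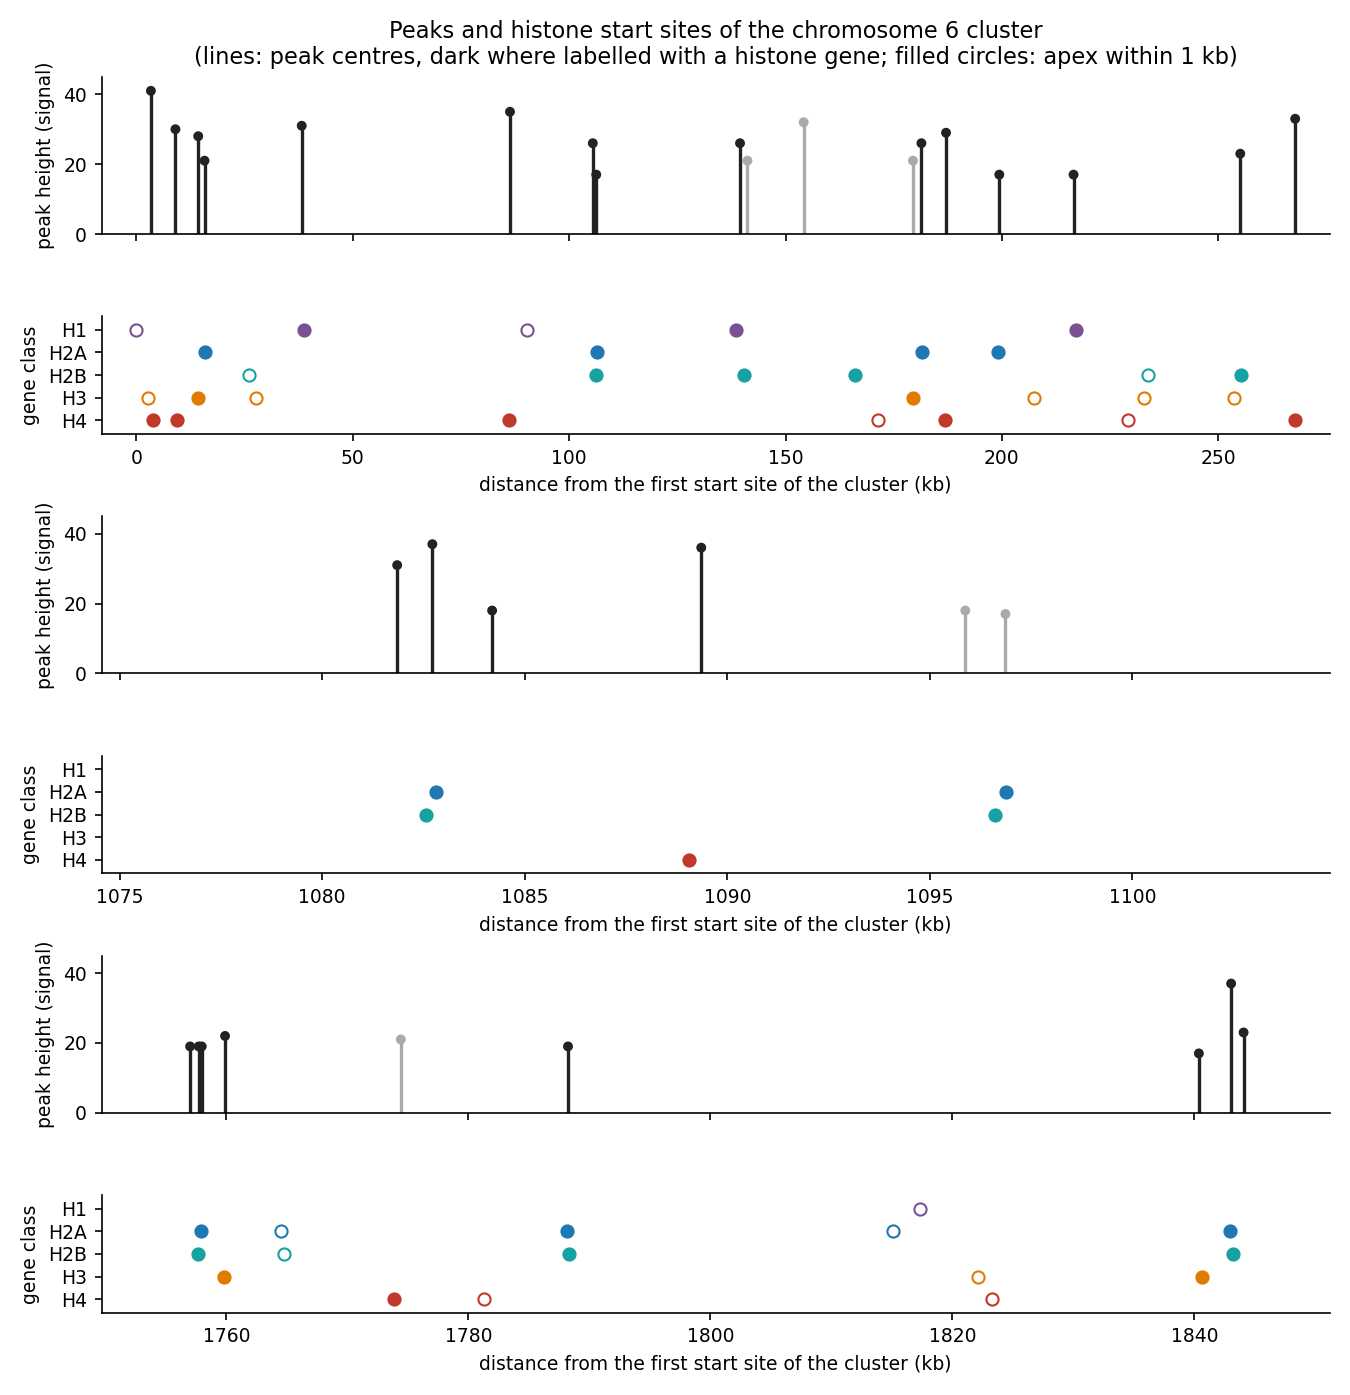
The 3 blocks of the chromosome 6 cluster are drawn from top to bottom at different scales, with distance in kb from the first histone start site; each line is a peak at its centre and its height, dark where the peak bears a histone symbol, and each circle is a start site, filled where an apex lies within 1 kb. Of the 50 start sites 32 are filled, and most lines of the third block stay below 25.

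Peaks of variant genes outside the clusters were high. H3-3B, which encodes H3.3, had a height of 47 at 1094 bp with the apex 124 bp upstream of the start. H2AZ2 had 43 at 1403 bp with the apex 87 bp upstream, and H2AX had 40 at 1996 bp with the apex 80 bp upstream. H2AZ1, the other H2A.Z gene, was lower at 24 and 846 bp, with the apex 170 bp upstream. The median of these 4 heights was 41.5. The fifth symbol, H2AZ1-DT, is a noncoding transcript that runs away from H2AZ1, and its peak of 244 bp and height 19 had its apex 1071 bp downstream of the H2AZ1 start.

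Symbols were only a partial guide to the gene at the peak. A label was given by the study where the apex overlapped a promoter, and promoters of neighbouring histone genes overlap. Without H2AZ1-DT, 25 of 35 labels named the coding histone gene with the start site nearest to the apex and 10 named another. The peak labelled H3C8 had its apex 10 bp inside H2BC10 and 1528 bp upstream of H3C8. The peak labelled H2BC8 covered the start of H2AC8. H2BC8 had no start site in the annotation used, so its label could only fall among the 10. The 4 peaks labelled H2BC13 included 1 over the start of H2AC13 and 1 over that of H3C10. Of the 35 peaks, 21 held 1 start site of a coding histone gene, 7 held 2 and 7 held none. The apex was within 200 bp of a start site in 24, with a median distance of 87 bp, and it was downstream of the nearest start in 25 and upstream in 10.

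Counted by gene, more histone genes had a peak at the start than had a label. GENCODE lists 79 coding histone genes that the name rule covers, and 25 of them labelled a peak, where the share over all protein-coding genes was 30.0% (6026 of 20090). A start site lay within 1 kb of an apex for 42 of the 79 (53.2%, Wilson 95% interval 42.3 to 63.8%), where the share over all protein-coding genes was 39.3%. In the chromosome 6 cluster the count was 32 of 50 (64%, interval 50.1 to 75.9%), and elsewhere it was 10 of 29 (34.5%, interval 19.9 to 52.7%). The intervals cover counting only, and genes that share a peak are not independent. Of the 42 genes, 18 had no label under the symbol matched here. They included H3C4 with an unlabelled peak of height 21 and H2BC12 with unlabelled peaks of 17 and 18. H2AC25 was also counted there, because the label H2AW at its start was not matched to it.

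By class, a start within 1 kb of an apex was most frequent for H2A genes of the cluster, 9 of 11, and for H2B genes, 9 of 12. H4 followed with 7 of 11, then H1 with 3 of 6 and H3 with 4 of 10. The Wilson intervals of all 5 classes overlapped, running from 52.3 to 94.9% for H2A and from 16.8 to 68.7% for H3. By block, the counts were 18 of 29, 5 of 5 and 9 of 16. Counted instead by a main start site covered by a peak, the classes had 9 H2A, 8 H2B, 6 H4, 5 H3 and 3 H1 genes. The order of H4 and H3 was thus less marked by that count. Of the 32 cluster genes with an apex near, 19 had the apex within the gene, 11 upstream and 2 past the 3' end, and 12 of the 50 genes lay wholly inside peaks while 17 had no base in one.

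**Figure D3:**
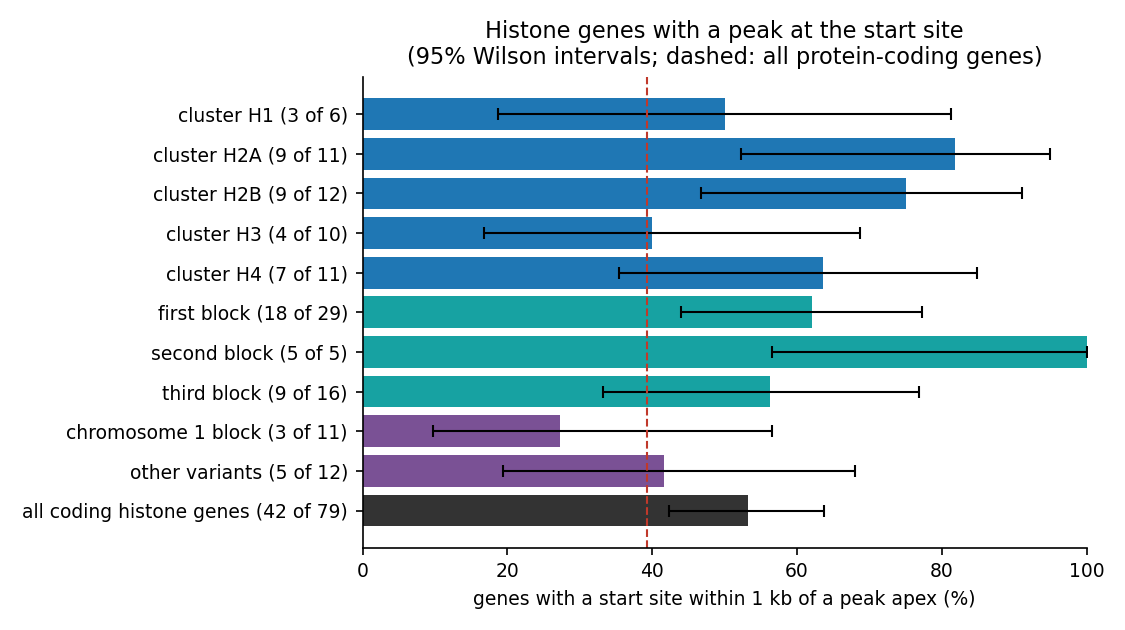
Bars give the percent of coding histone genes with a start site within 1 kb of an apex, for the classes and blocks of the chromosome 6 cluster, the chromosome 1 block, the variant genes and all histone genes, with 95% Wilson intervals. The dashed line is the share over all protein-coding genes, 39.3%, which lies below the lower bounds of the H2A, H2B, first-block, second-block and overall bars and within the other intervals.

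Outside the rule of labels, peaks at other histone starts bore other names. H3-3A, the second H3.3 gene, had a peak of height 37 with the apex 36 bp upstream of a start site, labelled H3P6. The pair H2AC25 and H2BC26 on chromosome 1 had peaks of 21 and 16 labelled H2AW. The name rule leaves out this histone symbol and it was not matched to a gene, so H2AC25 may bear its own label under another symbol. A peak of 44 labelled MIR4738 had its apex 359 bp from an alternative start of H3-3B, apart from the peak at the main start. The gene UNK also overlapped that apex. The unlabelled peak of height 32 nearest to H2BC6 was 124 bp from an alternative start and 11826 bp from the main start of that gene. In the chromosome 6 window 13 of 45 peaks had no label, and 6 of these lay within 1 kb of a histone start site.

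Of the 11 divergent pairs with starts under 1 kb apart, 8 had a peak and 3 had none, which were H2AC1/H2BC1, H3C7/H2BC9 and H2AC14/H2BC14. Pairs with H2BC7 or H2BC8, which had no matched start site, could not be counted. In 7 pairs 1 peak covered both starts, with heights of 48 at H2BC21/H2AC20, 37 at H2BC11/H2AC11, 37 at H2AC17/H2BC17, 21 at H2AC25/H2BC26, 19 at H2AC15/H2BC15 and 17 at both H2BC4/H2AC6 and H2BC12/H2AC12. The apex fell between the starts in 3 pairs. At H2BC13/H2AC13 separate peaks of 186 and 123 bp, each of height 19, covered 1 start each, with 94 bp between them.

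**Figure D4:**
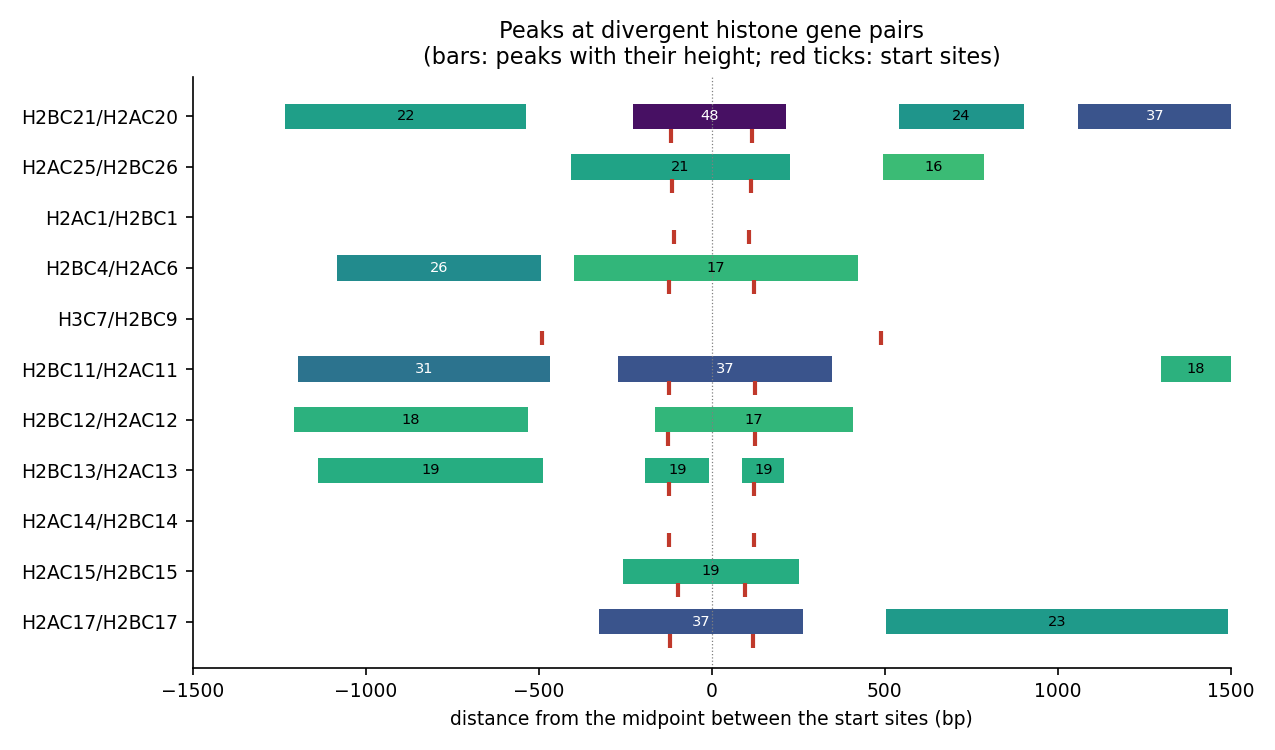
Bars are peaks within 1500 bp of the midpoint between the start sites of each divergent pair, cut at the edge of the plot, with the height written in the bar; red ticks are start sites. One bar spans both ticks in 7 pairs, 2 short bars of height 19 stand at H2BC13/H2AC13, and 3 pairs have no bar.

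Many of the pairs had further peaks on either side of the shared promoter. H2BC21 had a second peak of 22 whose apex was 926 bp downstream of its start, and H2AC21 beyond it had peaks of 24 and 37. H2BC4 had peaks of 26 and 17, and the higher one had its apex 486 bp inside the gene while the lower one covered the start. H2BC11 had peaks of 31, 37 and 18, H2BC13 had peaks of 19, 19, 19 and 22, and H2AC17 had peaks of 37 and 23.

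Some of the breaks between such peaks fell on sequence that occurs more than once in the genome. As a measure of this, every 50-base word was searched for exact copies on both strands of GRCh37. In 10 of the 11 gaps under 1 kb between neighbouring histone peaks at least 1 word had a copy, against 167 of 300 such gaps between other promoter peaks (55.7%). The median share of words with a copy was 15.6% over the 11 gaps and 2.14% over the 300, where it reached 94.9%. This share was 48.9% between the 2 H2BC21 peaks, 36.4% between the 2 H2BC4 peaks, 30.8% in the gap of 94 bp between the narrow H2BC13 peaks and 28.6% between H2BC21 and H2AC21. It was 3.43% between the H2AC21 peaks, 1.30% in the wider of the H2BC11 gaps, 1.13% between H2AZ1-DT and H2AZ1 and 0 between H3C2 and H2AC4. Within the 36 peaks themselves it was at most 0.851%. How reads with several matches were handled is not given in the sources used here. The part of such sequence in the separation of these peaks was not tested.

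Start sites without a peak also held copied sequence on chromosome 1. Within 500 bp of the start, all words had a copy at H4C14, H3C14, H2AC18, H2AC19, H3C15 and H4C15, genes that lie in 2 mirrored copies, and the share was 71.6% at H3C13, 59.9% at H2BC18 and 54.0% at H3-7. None of these 9 had an apex within 1 kb, and no start site with an apex exceeded 43.3%. On the chromosome 1 block 3 of 11 genes had an apex near, namely H2BC21, H2AC20 and H2AC21. The median share over all 37 starts without an apex near was 0.525%, against 0.945% at the 42 starts with one. In the chromosome 6 cluster, no start without a peak exceeded 43.3%. H2AC13 and H2AC14 shared 34.3% of their words, and the first had a peak of height 19 where the second had none. H4C11 and H4C12 shared 43.3%, and an apex lay 495 bp from H4C11 and none lay within 1 kb of H4C12. The part of copied sequence in these absences was not tested.

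Histone promoters differed in sequence from most promoters of the table. RefSeq promoters (GRCh38.p14, 250 bases before to 50 after the start) were matched for 71 of the 79 genes, and the shares were read against all 27305 promoters of the table. CCAAT was present in 84.5% against 35.7%, TATAAA in 66.2% against 12.0% and ATTTGCAT in 35.2% against 1.80%. TTTNNCGC, an E2F-type motif, was present in 29.6% against 6.90%. AGGTCA was present in 11.3% (interval 5.82 to 20.7%) against 13.9%, and GGAAGT, an ETS-type motif, in 12.7% against 23.2%. Genes without a match included H4C1, H4C3, H2AC12, H3C11 and H3C12.

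The motifs followed the histone class. Among replication-dependent genes, CCAAT was in 16 of 16 H2A, 16 of 16 H2B, 11 of 11 H3 and 6 of 6 H1 promoters and in 2 of 12 H4 promoters. The octamer was in 12 of 16 H2B and 11 of 16 H2A promoters and in 0 of 12 H4 promoters. GGTCCG was in 11 of 12 H4 promoters, against 11.2% of all promoters, and AAACACA, the H1 element, was in 6 of 6 H1 promoters, against 5.76%.

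**Figure D5:**
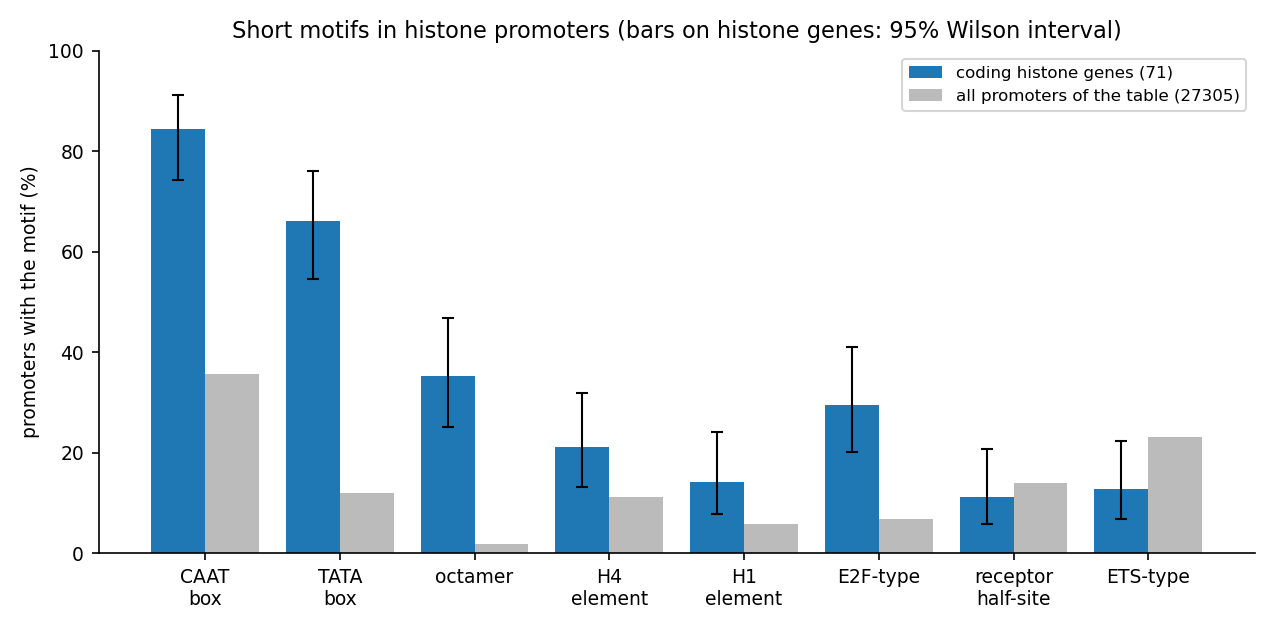
Bars give the percent of promoters that hold each motif on either strand, for 71 coding histone genes in blue with 95% Wilson intervals and for all 27305 promoters of the table in grey. CAAT box, TATA box, octamer and E2F-type motifs were more frequent in histone promoters by the values in the text, and the receptor half-site was at 11.3% against 13.9%.

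The motif shares of promoters with and without a peak were set side by side without a test. Over replication-dependent genes, 33 with an apex within 1 kb and 28 without, CCAAT was in 87.9% and 78.6%, TATAAA in 66.7% and 67.9%, GGTCCG in 21.2% and 25%, and AGGTCA in 12.1% and 14.3%. TTTNNCGC was in 27.3% and 39.3%, GGAAGT in 18.2% and 10.7% and AAACACA in 12.1% and 17.9%. The octamer was in 48.5% and 28.6%, with counts of 16 and 8. Within H2B genes the order was the other way, 7 of 11 with an apex and 5 of 5 without. Of the sequences shown, AGGTCA was present once at H2BC11/H2AC11, which had a peak of 37, and once at H2AC14/H2BC14, which had none.

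Around the peak centres the histone peaks stood apart from other promoter peaks in base composition. Within 200 bp of the centre the median GC content was 52.9% against 66.6%, and the median number of CG dinucleotides was 22.5 against 35. CCAAT was in 69.4% of the 36 histone windows against 35.8% of the others, TATAAA in 30.6% against 4.22% and TTTNNCGC in 44.4% against 11.7%. AGGTCA was in 13.9% against 16.4% and GGAAGT in 8.33% against 32.1%. GGTCCG was in 8.33% against 22.8% around the centre, but in 19.4% against 19.5% within 200 bp of the apex, where 5 of the 6 H4-labelled peaks held it in place of 1 of 6. In windows 2 kb toward lower coordinates, AGGTCA was in 27.8% for histone peaks and 30.9% for the others, and CCAAT in 47.2% and 39.2%. TATAAA was more frequent there than at the centres, in 52.8% and 24.3%, so its higher share beside histone peaks was not limited to the peak centres. TTTNNCGC was in 5.56% and 2.79% of these windows.

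Genes listed under histone production or deposition were looked at beside the histone genes. The list was chosen with earlier results of these data known, so its counts are descriptive only. The groups are broad, and the part of each gene in histone production was not tested. Of 22 listed, 17 labelled a promoter peak and 19 had an apex within 1 kb of a start, where the shares over all protein-coding genes were 30.0% and 39.3%. Among 7 genes grouped under histone transcription 6 were labelled. NPAT, the organiser of the histone locus body, had a height of 43, its partner CASP8AP2 had 45, and HINFP, which binds H4 promoters, had 42. POU2F1, the octamer-binding factor, had 35 and CNBP had 22, while E2F1 had peaks of 36 and 16, and POU2AF1 had none within 1 kb.

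Of the 4 genes of histone mRNA 3' end processing, SLBP, the stem-loop binding protein, had a height of 35, and the U7 particle genes LSM10 and LSM11 had 28 and 21. The start of ZNF473 lay under a peak of 40 labelled VRK3. Among 11 genes grouped under chaperones, a group that also holds HAT1 and ATRX, 8 were labelled. ASF1A and ASF1B were the highest with 51 each, followed by DAXX with 39 and NASP with 32. SUPT16H had 27 and 16, HIRA had 21, HAT1 had 19 and SSRP1 had 17. The apex nearest to a HIRA start, 364 bp away, was that of a different peak, of height 19 and labelled C22orf39. An unlabelled peak of 23 lay at an alternative start of CHAF1A, and no apex lay within 1 kb of CHAF1B or ATRX.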

How the data were processed

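Cut&Run libraries of U937-PR9 cells were measured, and 1 peak list was used. Trimming (Trimmomatic), alignment to hg19 (Bowtie2), removal of duplicates (SAMtools) and peak calling with a matched control (SEACR) were done by the authors, and peaks with an IDR below 0.05 over 2 replicates were kept. Tool versions are not given in the sources used here. The authors deposited the total signal of each peak and a score, which by its values is the largest signal and is called height. Scaling, and whether 1 or both replicates are counted, are not given there. Depth per library is unknown. No column of another series was used (0 columns).

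Start sites are those of protein-coding transcripts in GENCODE release 44 mapped to GRCh37, where H2BC7 and H2BC8 were not matched. Shares have Wilson 95% intervals. Copies are exact words of 50 bases. Motifs were searched on both strands. Both searches were tested on simulated sequence. Values were given in full for the 5 highest, 5 widest and the lowest peaks, genes with several peaks, variants and the highest of each class. The members, gene lists and motifs were chosen with earlier results of these data known. Software was Python 3.11.15 (pandas 2.3.3, scipy 1.17.1, numpy 2.4.6, pysam 0.24.0) and samtools 1.23.1.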

Additional observations from a re-analysis of the deposited data

How the results depend on the processing

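Of 42 alternatives, 28 kept the value within a set range. The range was 1.5 times the count, the interval of the share or median, or a nominal 95% band around the difference. This band used only the SD over the 36 histone peaks, so the spread of the other promoter peaks was left out. The ranges for medians and differences took peaks as separate units, although peaks are not replicates, and served only to sort the alternatives. Restricting to peaks at or above the median of the whole list left 19 histone peaks by height and 18 by width. By place in place of label, 42 histone genes had a start within 1 kb of an apex, 45 within 3 kb and 42 under a peak, against 25 labelled. The median width was 1347 bp with peaks under 1 kb apart joined and 1152 bp among the higher peaks, against 827 bp. The difference in mean log2 height was -0.03, 0.10 within 10 classes of width and -0.31 for total signal, so its sign depends on the choice. The difference in mean log2 width turned from -0.52 to 0.16 with neighbouring peaks joined, an alternative chosen after seeing the data, as were the omission of H2AZ1-DT and the restriction to chromosome 6. Within 100 bp of the peak centre, the share with the CAAT box was 38.9% in place of 69.4%, that with the E2F-type motif 27.8% in place of 44.4%, that with the ETS-type motif 2.78% in place of 8.33% and that with the H1 element 0% in place of 5.56%, where 0 of 36 peaks allows a share of up to 8.33% by a limit of 3 counts and 9.64% by the Wilson interval.

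No paired analysis was possible because single replicates have no values in the data used, and for the same reason none was left out. The list holds 1 antibody and 1 condition, so the values cannot tell induced binding from signal that uninduced cells would also show. Copies were counted as exact words, which does not measure how the reads were mapped.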
